A study of Mus musculus with 24 samples.

Results

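The genes described here are 10 hypoxia and glycolysis genes, Slc2a1, Hk2, Pfkp, Ldha, Pgk1, Pdk1, Car9, Bnip3, Egln3 and Adm, in cultured mouse whisker follicles. They were taken by gene name among the probes that are not controls, and all 10 were among the 22079 genes or transcripts tested. The probe with the highest mean signal stood for each gene. That probe was well above background on all 24 arrays for all 10 genes, so none was lost to the filter on dim probes.

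Vibrissa follicles, the hair follicles that make whiskers, came from B6C3F1 mice at postnatal day 9 and were cultured for 24 h in medium with serum. The groups received panthenyl ethyl ether (PEE, an ether of provitamin B5, at 0.3%), pyridoxine hydrochloride (PH, a form of vitamin B6, at 0.015%) and tocopherol acetate (TA, an ester of vitamin E, at 0.024%). The 8 groups were PEE-PH-TA with all 3 compounds, the pairs PEE-PH, PEE-TA and PH-TA, the single compounds PEE, PH and TA, and a control without them. Each group had 3 one-colour Agilent arrays, from separate experiments per the labels, and each array held RNA of 10 follicles. The labels give no oxygen level for the culture. A whole follicle mixes many cell types, so fewer cells of a type and less RNA per cell cannot be told apart in any value below.

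Cells short of oxygen stop marking the HIF alpha proteins for destruction, and HIF then switches on genes that carry glucose into the cell, break it down to lactate and keep pyruvate out of the citric acid cycle. HIF binds the core letters ACGTG or GCGTG beside its target genes, and other signals can raise the same genes without a lack of oxygen. Hair follicles are known for making lactate from glucose even when oxygen is present.

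The promoter letters are shown because they are what these genes are best known to share. All 10 genes had a RefSeq promoter window (mouse build GRCm38.p6, 250 bases before to 50 bases after the start of the gene), with 12 windows in all. ACGTG or GCGTG, searched on both strands, stood in a window of 10 of 10 genes, against 46.7% of the 27025 genes with a window and 43.8% of all 32851 windows. ACGTG was found in 7 of the 10 genes, with 19.6% of all windows holding it, and the windows of Pfkp, Pdk1 and Adm held GCGTG but not ACGTG. The antioxidant response core TGACNNNGC, on both strands, was in the window of Adm and in none of the other 9 genes, against 14% of genes with a window and 12.4% of all windows. A match is a run of letters, not a binding site. The 250 bases before the start are printed for the 4 genes that passed a test in at least 1 comparison, 5′ to 3′ on the strand of the gene, with each ACGTG or GCGTG, or its reverse complement, in capitals.
Car9, chr4:43506776-43507025, plus strand: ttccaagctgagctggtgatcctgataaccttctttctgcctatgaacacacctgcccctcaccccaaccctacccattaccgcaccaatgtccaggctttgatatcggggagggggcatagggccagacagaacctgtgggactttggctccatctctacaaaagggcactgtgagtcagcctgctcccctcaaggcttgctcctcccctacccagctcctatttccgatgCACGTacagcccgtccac
Pfkp, chr13:6648772-6649021, minus strand: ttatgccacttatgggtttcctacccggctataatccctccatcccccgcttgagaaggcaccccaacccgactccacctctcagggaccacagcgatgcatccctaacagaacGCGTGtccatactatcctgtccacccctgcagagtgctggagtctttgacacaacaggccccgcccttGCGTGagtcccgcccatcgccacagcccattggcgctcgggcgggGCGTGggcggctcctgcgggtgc
Egln3, chr12:54203875-54204124, minus strand: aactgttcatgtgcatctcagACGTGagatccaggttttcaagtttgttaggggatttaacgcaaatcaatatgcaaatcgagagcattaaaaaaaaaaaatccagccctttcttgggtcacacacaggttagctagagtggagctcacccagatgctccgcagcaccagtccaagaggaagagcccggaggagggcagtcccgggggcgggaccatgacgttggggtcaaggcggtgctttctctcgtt
Ldha, chr7:46845554-46845803, plus strand: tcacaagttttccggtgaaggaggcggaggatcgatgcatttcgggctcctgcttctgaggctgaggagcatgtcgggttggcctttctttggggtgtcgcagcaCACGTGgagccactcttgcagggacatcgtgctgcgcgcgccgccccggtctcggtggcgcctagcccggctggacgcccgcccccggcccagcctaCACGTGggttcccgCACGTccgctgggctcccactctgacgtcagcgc
Car9 held 1 such match, 18 bases before the start, and Egln3 held 1 match 229 bases before it. Pfkp held 4 in the whole window, and the first window of Ldha held 7, in which an ACGTG on each strand overlapped at 2 places.

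Markers of the hair shaft and root sheaths were present in every culture. All 13 hair shaft and matrix markers, all 8 inner root sheath markers and all 8 outer root sheath markers were well above background on 24 of 24 arrays, as were 16 of 17 skeletal muscle markers. Of 7 dermal papilla markers 6 were too, while Corin was well above background on 3 of the 24 arrays. The 75th percentile of raw signal differed between groups, at 175 to 187 in PEE-PH-TA, 199 to 217 in PEE-PH, 177 to 200 in PEE-TA, 203 to 248 in PH-TA, 142 to 147 in PEE, 180 to 192 in PH, 175 to 200 in TA and 155 to 190 in control. Levels below are log2 of the signal relative to that percentile of the same array, so 0 is the 75th percentile, and levels of different probes cannot be set against each other. A difference is between 2 such levels, with its standard error (SE) from 3 arrays a group, and a gene was called when its limma p, adjusted over all 22079 genes within the comparison, was under 0.05. No count of reads stands behind an array value, so the number of arrays limits the precision. The 7 comparisons against control share the control arrays.

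Car9 encodes carbonic anhydrase IX, a cell-surface enzyme that turns carbon dioxide into bicarbonate and protons and is among the genes most tightly tied to HIF. It rose in 5 of the 7 treatments, more than any other of the 10 genes. Its level was 2.54, 2.73 and 2.80 under PEE-PH, 2.15, 2.61 and 2.49 under PEE-TA, 2.50, 1.76 and 2.64 under PH-TA and 1.94, 2.30 and 2.85 under PEE-PH-TA, against 1.68, 1.26 and 1.47 in control. All 12 of these treated arrays lay above all 3 control arrays. The single compounds gave 2.40, 2.50 and 1.97 under PH, 1.96, 2.05 and 1.78 under TA and 1.31, 1.67 and 1.18 under PEE. The PH and TA arrays also lay above the control arrays, while the PEE arrays overlapped them.

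Against control, Car9 was 2.34-fold higher under PEE-PH (log2 difference 1.22 ± 0.23, adjusted p = 0.000564). It was 1.93-fold higher under PEE-TA (0.94 ± 0.23, adjusted p = 0.00652), 1.86-fold higher under PEE-PH-TA (0.89 ± 0.23, adjusted p = 0.0122) and 1.78-fold higher under PH-TA (0.83 ± 0.23, adjusted p = 0.0122). PH alone gave a 1.77-fold rise that passed narrowly (0.82 ± 0.23, adjusted p = 0.0457). TA alone gave 0.46 ± 0.23 (adjusted p = 0.316) and PEE alone -0.08 ± 0.23 (adjusted p = 0.876), neither of which passed. In the order of the 8 group means, the one gap without overlap between neighbours was that between TA and control.

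Each slide carried 1 array of every group, so each comparison could be made within a slide. On slides 1, 2 and 3 the Car9 difference from control was 0.86, 1.47 and 1.34 under PEE-PH, 0.47, 1.34 and 1.02 under PEE-TA, 0.26, 1.03 and 1.38 under PEE-PH-TA, 0.82, 0.50 and 1.17 under PH-TA and 0.72, 1.24 and 0.51 under PH. It was positive on every slide in these 5 treatments, and slides 1 and 3 lay farthest apart under PEE-PH-TA. A second Car9 probe gave 1.10 under PEE-PH, 0.84 under PEE-TA, 0.76 under PEE-PH-TA, 0.63 under PH-TA and 0.65 under PH, the same direction each time. The last 2 of these missed the threshold when adjusted over the 33365 probes tested (limma adjusted p = 0.0534 and 0.115).

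The Car9 call under PEE-PH held without any 1 array, and that under PEE-TA was lost once, without slide 2 (0.75 on the log2 scale, adjusted p = 0.118). The call under PH was lost without each of the 3 control arrays in turn (adjusted p = 0.0577, 0.143 and 0.141), without PH replicate 1 (0.0986) or 2 (0.203), and with the slide as a block (0.0537). With PH-TA it was lost without control replicate 2 (adjusted p = 0.0527), PH-TA replicate 1 (0.0614) or 3 (0.0541). With PEE-PH-TA it was lost without control replicate 2 (adjusted p = 0.0566) or PEE-PH-TA replicate 3 (0.65 on the log2 scale, adjusted p = 0.0691). Leaving out a whole slide ended the PEE-PH-TA call without slide 2 (0.0927) or 3 (0.146), the PH-TA call without slide 1 (0.0978) or 3 (0.0843), and the PH call without slide 1, 2 or 3 (0.158, 0.401 and 0.0986). With array signal as a covariate the calls under PH (0.0803) and PH-TA (0.249) were lost, and with only the arrays compared those under PH (0.0847), PH-TA (0.0606) and PEE-PH-TA (0.0644). All p-values here are limma adjusted p-values.

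**Figure D1:**
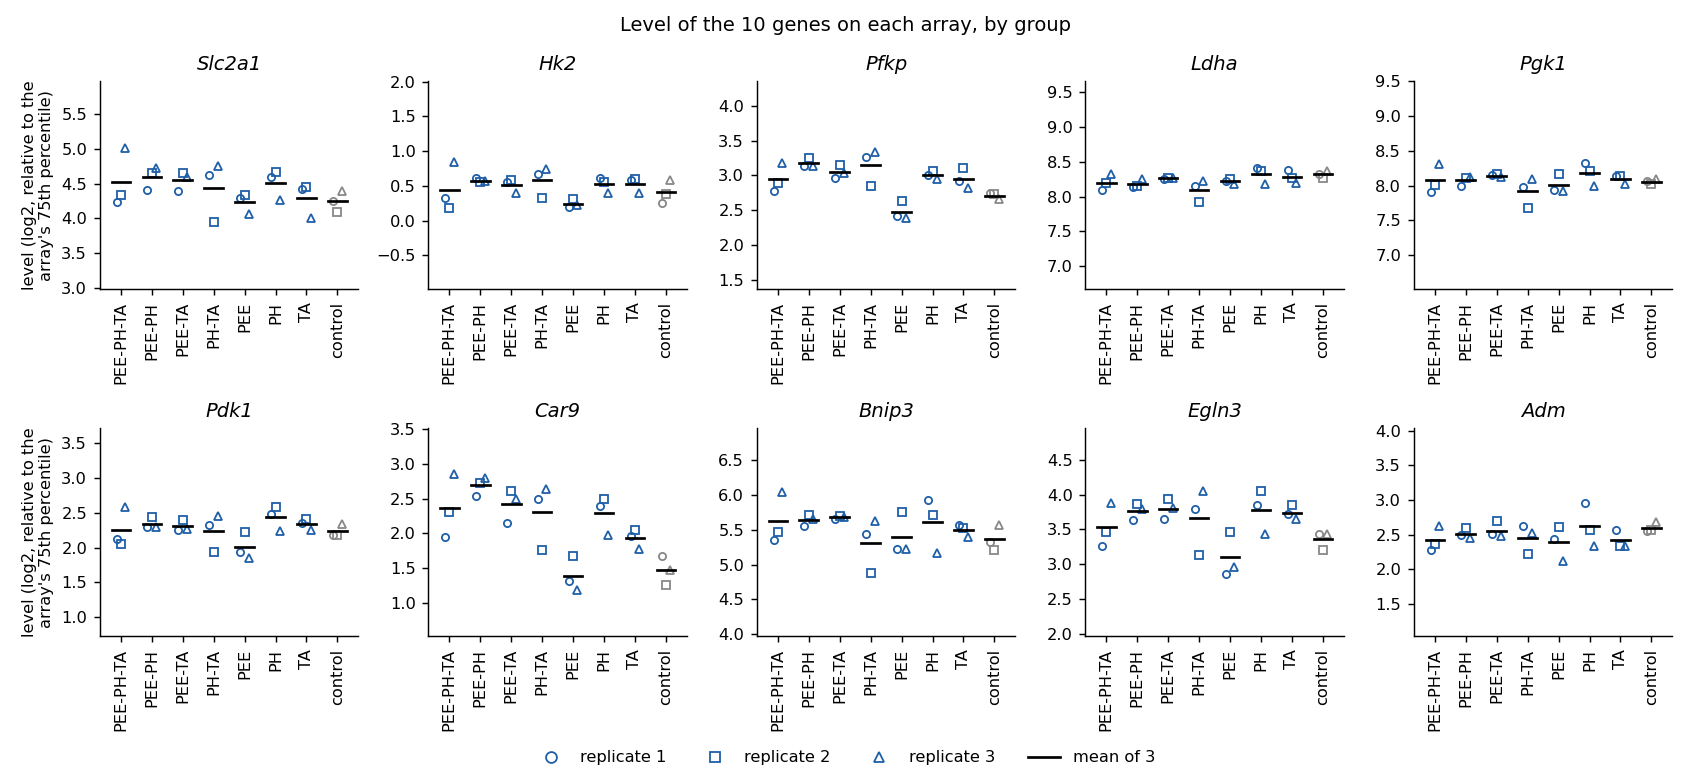
Level of each of the 10 genes (log2 of signal relative to the 75th percentile of the array) on each of the 24 arrays, with treated groups in blue, control in grey, symbols for replicates and a bar for the mean of 3. All panels span the same log2 range. Car9 lay at 1.76 or above on the 12 arrays with 2 or 3 compounds, against 1.26 to 1.68 in control, while the Ldha and Pgk1 means stayed within 0.22 and 0.26 of each other.

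Pfkp encodes the platelet-type phosphofructokinase, which performs the committed step of glycolysis. It rose with each pair of compounds. Its level was 3.14, 3.25 and 3.14 under PEE-PH, 2.97, 3.15 and 3.03 under PEE-TA and 3.26, 2.85 and 3.34 under PH-TA, against 2.74, 2.73 and 2.66 in control. The differences were 0.47 ± 0.12 under PEE-PH (limma adjusted p = 0.00476), 0.34 ± 0.12 under PEE-TA (adjusted p = 0.0392) and 0.44 ± 0.12 under PH-TA (adjusted p = 0.00896). These are rises of 1.38-fold, 1.27-fold and 1.36-fold.

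Pfkp in the other treatments did not pass. It read 2.78, 2.89 and 3.18 under PEE-PH-TA, 3.00, 3.06 and 2.95 under PH and 2.92, 3.10 and 2.82 under TA, all above the control arrays. PEE alone gave 2.42, 2.63 and 2.38, all below them, and the difference was -0.23 ± 0.12 (limma adjusted p = 0.221). With this probe Pfkp was thus the one gene of the 10 whose arrays did not overlap control in any of the 7 treatments. These treatments share the 3 control arrays, whose Pfkp levels lay close together (SD 0.04). In single treatments 22.7% to 49.9% of all genes did not overlap control, and the share without overlap in all 7 was not counted. Within slides 1, 2 and 3 it differed from control by 0.40, 0.52 and 0.48 under PEE-PH, by 0.24, 0.42 and 0.37 under PEE-TA and by 0.53, 0.12 and 0.68 under PH-TA. The PEE-TA call was lost without each of the 3 control arrays in turn (limma adjusted p = 0.0669, 0.0768 and 0.115) and without PEE-TA replicate 2 (0.152) or 3 (0.0758). Without slide 1 the PEE-PH and PH-TA calls were lost too (limma adjusted p = 0.0643 and 0.152), and without slide 3 the PH-TA call (0.106). With array signal as a covariate the differences of 0.42, 0.32 and 0.38 did not pass (limma adjusted p = 0.0975, 0.116 and 0.342), and with only the arrays compared the PH-TA call was lost (0.0681).

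The rise of Pfkp depended on the probe. Of its 5 probes, 3 were tested, and the other 2 were above background on 10 and 2 arrays. The second probe spans an exon junction, as its 60 bases cover a longer stretch of the genome, and gave 0.41 under PEE-PH, 0.38 under PEE-TA and 0.39 under PH-TA, all past the threshold over probes (limma adjusted p = 0.0143, 0.0297 and 0.0243). The third, listed for a separate Ensembl transcript, ran the opposite way at -0.73, -0.54 and -0.62 in the same 3 comparisons (limma adjusted p = 0.0018, 0.0188 and 0.00814). It was a much dimmer probe, with a mean level of -2.45 against 2.93 for the first and 1.29 for the second. Without the filter on dim probes the median over all genes was -0.19 under PEE-PH, -0.14 under PEE-TA and -0.2 under PH-TA. Whether dimness had a part in the opposite sign was not tested. The mean of the 3 probes, each with equal weight, differed from control by 0.05 under PEE-PH, 0.06 under PEE-TA and 0.07 under PH-TA. No Pfkp call remained with it.

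Pdk1 encodes pyruvate dehydrogenase kinase 1, which blocks the conversion of pyruvate to acetyl-CoA, and its probes split as well. The probe with the highest signal gave 0.11 ± 0.14 under PEE-PH and 0.00 ± 0.14 under PH-TA, neither past the threshold (limma adjusted p = 0.585 and 0.986). Probe 4, again listed for a separate Ensembl transcript, fell by 0.56 under PEE-PH and by 0.58 under PH-TA (adjusted p = 0.0409 and 0.0427 over probes). It too was dim, with a mean level of -3.17 against 2.27 for the probe with the highest signal. The other 3 probes, among them probe 5 with a mean level of -3.21, did not pass in these comparisons. The sequences of 2 Pfkp and 2 Pdk1 probes that differ in this way are shown, with array coordinates on mouse build mm9, in lower case throughout because no part is singled out.
Pfkp probe 2, chr13:6581718-6583872, minus strand: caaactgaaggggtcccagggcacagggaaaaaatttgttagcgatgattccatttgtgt
Pfkp probe 3, chr13:6588296-6588355, minus strand: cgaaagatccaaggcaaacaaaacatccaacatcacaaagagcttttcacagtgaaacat
Pdk1 probe 5, chr2:71721635-71721929, plus strand: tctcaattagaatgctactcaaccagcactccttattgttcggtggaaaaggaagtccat
Pdk1 probe 4, chr2:71722122-71722181, plus strand: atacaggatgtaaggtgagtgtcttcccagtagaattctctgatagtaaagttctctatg
Pfkp probe 2 and Pdk1 probe 5 cover 2155 and 295 bases of the genome with 60 bases of sequence. Pfkp probe 3 and Pdk1 probe 4 lie in 1 block of 60 bases each. Whether those blocks are exonic or intronic was not looked up, since no exon annotation of mm9 was used here.

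**Figure D2:**
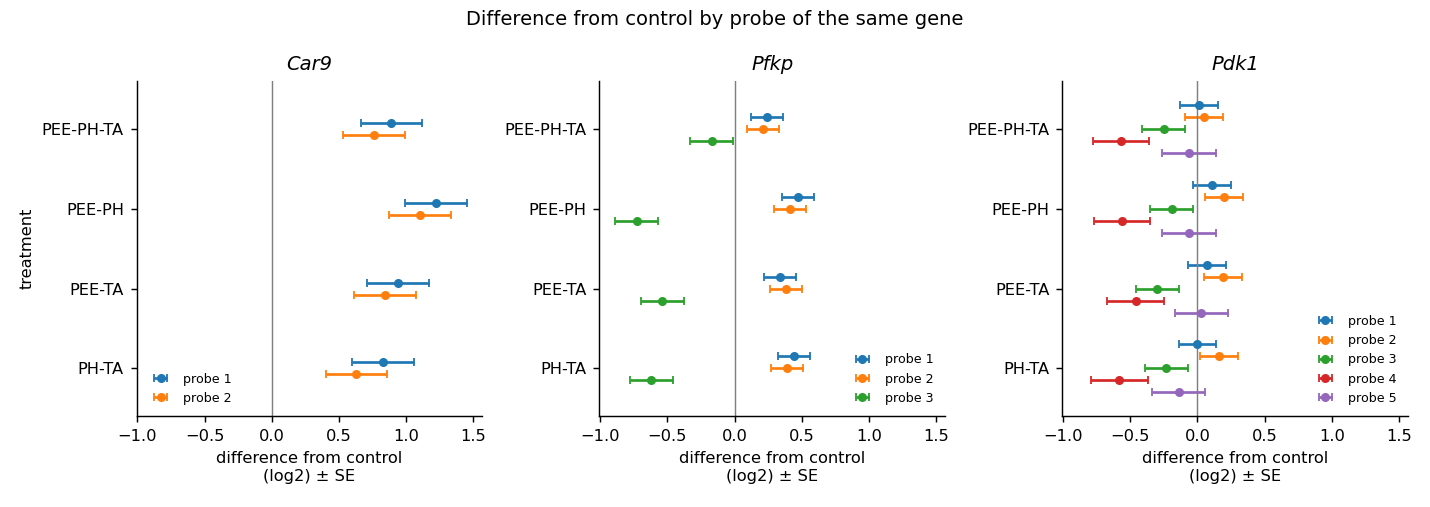
Difference from control (log2, with SE) by probe for Car9, Pfkp and Pdk1 in the 4 treatments with 2 or 3 compounds, which run down the page; probe numbers go by mean signal. Both Car9 probes lie right of 0, while Pfkp probe 3 and Pdk1 probe 4 lie left of it.

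Egln3 encodes prolyl hydroxylase 3, one of the oxygen sensors that mark HIF alpha for destruction, and is itself a HIF target. Against control it passed in none of the 7 treatments. Its level was 3.64, 3.86 and 3.80 under PEE-PH, 3.65, 3.94 and 3.81 under PEE-TA, 2.86, 3.47 and 2.96 under PEE, and 3.44, 3.20 and 3.44 in control. The PEE-PH and PEE-TA arrays did not overlap those of control, and the differences of 0.41 ± 0.21 and 0.44 ± 0.21 had limma adjusted p-values of 0.144 and 0.136. With only the arrays compared both passed (limma adjusted p = 0.0289 and 0.0496), as did PEE-PH with normexp background (0.46, adjusted p = 0.0491). PH gave 3.85, 4.06 and 3.44, TA 3.73, 3.85 and 3.65 and PEE-PH-TA 3.26, 3.47 and 3.88, of which the TA arrays lay above those of control and the others overlapped them. PH-TA gave 3.80, 3.13 and 4.05, and without its replicate 2, the lowest array, the difference of 0.57 passed (limma adjusted p = 0.0458).

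Ldha encodes the lactate dehydrogenase subunit that turns pyruvate into lactate. It was lower under PH-TA, at 8.16, 7.92 and 8.22, against 8.33, 8.27 and 8.37 in control, a difference of -0.22 ± 0.08 or 1.16-fold (limma adjusted p = 0.0471). This call was weak: it was lost without each control array in turn (limma adjusted p = 0.0935, 0.0596 and 0.144), without PH-TA replicate 1 (0.0684) or 2 (-0.13 on the log2 scale, adjusted p = 0.249), and with the slide as a block (0.0529). With quantile normalization the difference was 0.05. In the authors' deposited value table it was 0.06. A second Ldha probe gave -0.15 under PH-TA (adjusted p = 0.238 over probes).

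With the processing used for the values above, the remaining glycolytic genes passed in none of the 22 comparisons. Slc2a1, the glucose transporter GLUT1, differed from control by -0.01 to 0.35 across the 7 treatments, and its 24 levels ran from 3.95 to 5.01 with a median of 4.40. Under PEE-PH its arrays, at 4.41, 4.65 and 4.73, lay above the 4.25, 4.10 and 4.39 of control (0.35 ± 0.21, limma adjusted p = 0.199). Hk2, the hexokinase that traps glucose in the cell, differed by -0.16 to 0.18, with levels from 0.18 to 0.84. Pgk1, the phosphoglycerate kinase that yields ATP in glycolysis, differed by -0.14 to 0.12, with levels from 7.68 to 8.33. For PH added to PEE, Pgk1 passed with quantile normalization (0.32), the authors' deposited table (0.37) and normexp background (0.24). The limma adjusted p-values were 0.0333, 0.0195 and 0.0494. With normexp background Slc2a1 (0.47) and Hk2 (0.29) passed there too (limma adjusted p = 0.0342 and 0.0221). So did Pgk1 for TA added to PEE (0.25, limma adjusted p = 0.0489).

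The other HIF targets did not pass either. Bnip3, a mitochondrial protein that promotes mitophagy, differed from control by -0.06 to 0.31 and ranged from 4.88 to 6.05 over the arrays. Under PEE-TA its arrays, at 5.66, 5.70 and 5.68, lay above the 5.32, 5.21 and 5.57 of control (0.31 ± 0.21, limma adjusted p = 0.293). Adm, the precursor of the vessel-dilating peptide adrenomedullin, differed by -0.21 to 0.02 with levels from 2.12 to 2.95, and its group means lay within 0.23 of each other. The mean SD within a group was 0.23 for Bnip3 and 0.17 for Adm, against ranges of the group means of 0.37 and 0.23. A p-value that misses the threshold does not show that these genes were unaffected.

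The share of the 10 genes called was set beside that of all genes tested. Under PEE-PH 2 of 10 passed, against 35.9% of all genes, under PEE-TA 2 against 25.5%, under PH-TA 3 against 29.5% and under PEE-PH-TA 1 against 16.5%. PH called 1 of 10 against 5.25%, the single gene Car9, while PEE called 0 of 10 against 10.9% and TA 0 of 10 against 1.81%. The median difference of the 10 was 0.23 under PEE-PH, 0.21 under PEE-TA, 0.09 under PH-TA, 0.11 under PEE-PH-TA, -0.13 under PEE, 0.22 under PH and 0.11 under TA, where that of all genes lay between -0.06 and 0.02. In the count of genes whose arrays did not overlap control, the 10 gave 5 under PEE-PH (49.9% of all genes), 5 under PEE-TA (41.1%), 3 under PH-TA (44.6%), 2 under PEE-PH-TA (32.6%), 2 under PEE (32.6%), 2 under PH (26.5%) and 3 under TA (22.7%).

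**Figure D3:**
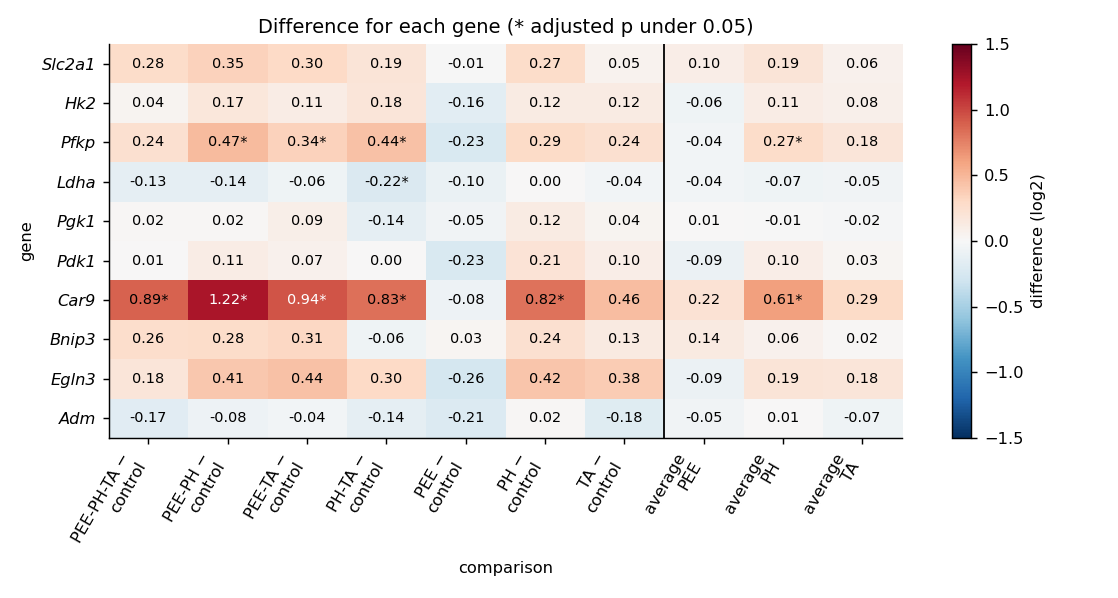
Difference of each gene (log2) for the 7 treatments against control and for the average effect of each compound; colour and number give the difference, and an asterisk marks a limma adjusted p under 0.05. Asterisks stand on Car9 and Pfkp, and on Ldha in 1 comparison, and the Car9 row runs from -0.08 under PEE to 1.22 under PEE-PH.

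Averaged over the 4 settings of the other compounds, PH was the one compound with calls among the 10. It raised Car9 by 0.61 ± 0.12 (limma adjusted p = 0.000923) and Pfkp by 0.27 ± 0.06 (adjusted p = 0.00211), 2 of 10 against 31.3% of all genes. The third Pfkp probe ran the opposite way at -0.30 (limma adjusted p = 0.00809 over probes). Pdk1 probe 4 gave -0.46 (limma adjusted p = 0.003 over probes), where the Pdk1 probe with the highest signal gave 0.10 and did not pass. On slides 1, 2 and 3 the PH effect on Car9 was 0.57, 0.42 and 0.83. With array signal as a covariate the effects were 0.65 and 0.24 and did not pass (adjusted p = 0.124 and 0.272), and the Pfkp call was also lost without slide 1 (0.069) or 3 (0.0599). PEE gave 0 of 10 (27% of all genes) and TA 0 of 10 (7.99%), and their effects on Car9 were 0.22 ± 0.12 and 0.29 ± 0.12 (adjusted p = 0.186 and 0.127). Without PH-TA replicate 2 the TA effect on Car9 was 0.36 and passed, as did that on Pfkp at 0.22 (limma adjusted p = 0.047 and 0.0169), and the PH effect on Slc2a1 and on Egln3 was 0.25 each (adjusted p = 0.0474 and 0.0434). The TA effect on Pfkp, 0.18 ± 0.06 (adjusted p = 0.0607), also passed without PEE replicate 2 (0.0452) or PEE-PH-TA replicate 1 (0.049).

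PH and TA each gave their highest differences for Car9, Pfkp and Egln3 when added to follicles that already had PEE. Adding PH to PEE raised Car9 by 1.30 ± 0.23 (2.47-fold, limma adjusted p = 0.000414), Pfkp by 0.70 ± 0.12 (adjusted p = 0.000248) and Egln3 by 0.67 ± 0.21 (adjusted p = 0.0207), 3 of 10 against 33.5% of all genes. Adding TA to PEE raised Car9 by 1.02 ± 0.23 (2.03-fold, adjusted p = 0.00419), Pfkp by 0.57 ± 0.12 (adjusted p = 0.00199) and Egln3 by 0.70 ± 0.21 (adjusted p = 0.0226), 3 of 10 against 23.2%. No array of PEE-PH or PEE-TA overlapped one of PEE for these 3 genes. The within-slide differences were positive in all 18 cases, from 0.40 to 1.62. These 3 genes were those that passed in the same additions, so neither point is separate evidence. The share of all genes without such overlap was not counted for these additions. The third Pfkp probe again ran the opposite way, at -0.95 for PH added to PEE and -0.77 for TA added to PEE (limma adjusted p = 0.000233 and 0.00218 over probes).

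Markers of some cell layers rose in the same additions, in which 33.5% and 23.2% of all genes were called. Of 8 inner root sheath markers 7 rose when PH was added to PEE and 8 when TA was added (medians 0.85 and 0.90), and of 13 hair shaft and matrix markers 10 and 11 rose (medians 0.90 and 0.99). Of 17 skeletal muscle markers 8 and 5 rose (medians 0.88 and 0.90). The summed level of the hair shaft markers was 303 to 413 under PEE-PH and 295 to 493 under PEE-TA, against 149 to 241 under PEE. That of the outer root sheath markers did not rise, at 1410 to 1490 under PEE-PH and 1420 to 1660 under PEE-TA, against 1440 to 1690 under PEE. The part of these markers in the differences of Car9, Pfkp and Egln3 was not tested.

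Both additions share the 3 PEE arrays, which also had the lowest raw signal (142 to 147, against 199 to 217 under PEE-PH and 177 to 200 under PEE-TA). With the signal of each array as a covariate the Car9 differences were 1.41 and 1.10, the Pfkp differences 0.61 and 0.51 and the Egln3 differences 0.92 and 0.89, and none passed (limma adjusted p from 0.19 to 0.364). The Egln3 call for PH added to PEE was lost without PEE replicate 1 (0.0913) or 3 (0.0736) or PEE-PH replicate 2 (0.0678), all limma adjusted p. That for TA added to PEE was lost without PEE replicate 1 (0.0972) or 3 (0.0825), or PEE-TA replicate 2 (0.0945) or 3 (0.0541). Both were lost without slide 1 (0.199 and 0.181) and without slide 3 (0.0939 and 0.105). Pdk1 passed for PH added to PEE without PEE replicate 2 (0.45, limma adjusted p = 0.0343). With all arrays Pdk1 probe 4 ran the opposite way, at -0.88 for PH and -0.78 for TA added to PEE (limma adjusted p = 0.00318 and 0.011 over probes).

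Where the other of the 2 compounds was already present, neither PH nor TA moved any of the 10 genes past the threshold. PH added to PEE-TA changed Car9 by -0.05 ± 0.23, Pfkp by -0.10 ± 0.12 and Egln3 by -0.26 ± 0.21, with 0 of 10 called against 0.24% of all genes. TA added to PEE-PH gave -0.33 ± 0.23, -0.23 ± 0.12 and -0.23 ± 0.21 for the same genes, 0 of 10 against 0.72%. PH added to TA (0 of 10, 4.16%) and TA added to PH (0 of 10, 0.322%) gave 0.37 ± 0.23 and 0.01 ± 0.23 for Car9. PEE added to PH, TA or PH-TA also called 0 of 10, against 12.6%, 6.65% and 13.5% of all genes.

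**Figure D4:**
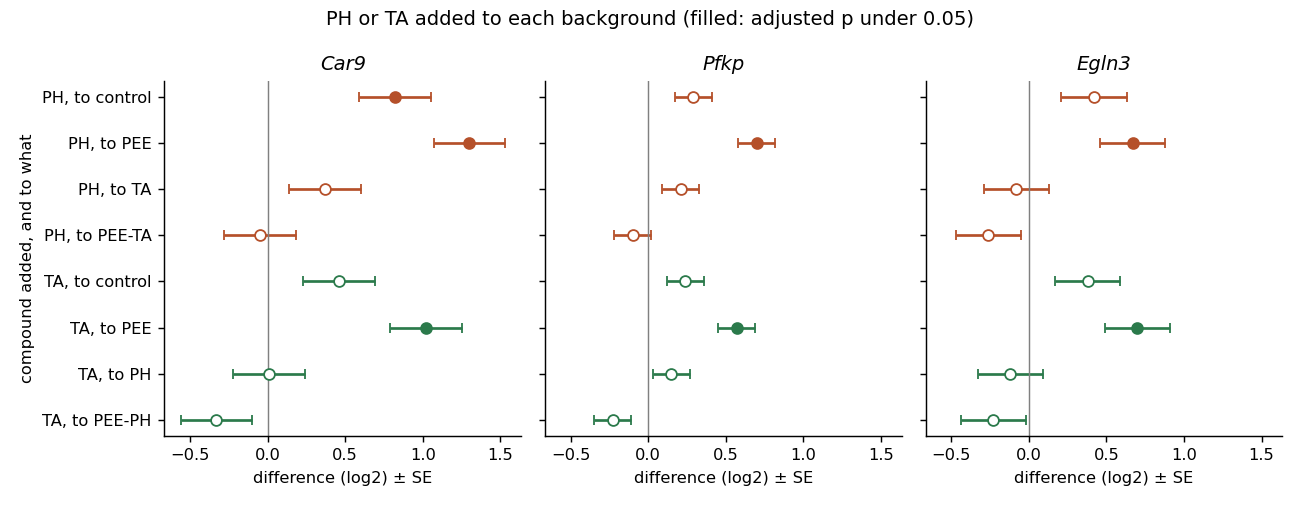
Difference (log2, with SE) when PH (upper 4 rows) or TA (lower 4 rows) was added to each background, for Car9, Pfkp and Egln3; filled points had a limma adjusted p under 0.05. For each gene the highest PH point and the highest TA point are those added to PEE, at 1.30 and 1.02 for Car9, and the lowest are those added to the pair that held the other compound.

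The test of non-additivity asks whether the effect of PH with TA present differs from its effect without TA, averaged over absence and presence of PEE. It was below 0 for all 10 genes and passed for 3, Car9 at -0.91 ± 0.23 (limma adjusted p = 0.0139), Egln3 at -0.72 ± 0.21 (adjusted p = 0.0301) and Pfkp at -0.45 ± 0.12 (adjusted p = 0.0159). That is 3 of 10 against 13.7% of all genes, and the median of the 10 was -0.30, where that of all genes was 0.04. In the same test 6 of 8 inner root sheath markers (median -0.63), 2 of 13 hair shaft and matrix markers (median -0.49) and 1 of 17 skeletal muscle markers (median -0.63) were lower, and their part in these values was not tested. On slides 1, 2 and 3 the value was -0.81, -1.45 and -0.46 for Car9, -0.75, -1.22 and -0.18 for Egln3 and -0.41, -0.73 and -0.19 for Pfkp. It was below 0 on every slide and largest on slide 2. Without slide 2 none of the 3 passed (-0.63, -0.46 and -0.30, limma adjusted p = 0.261, 0.265 and 0.229), nor without slide 1 (-0.95, -0.70 and -0.46, adjusted p = 0.0825, 0.194 and 0.129). The second Car9 probe gave -0.76 (adjusted p = 0.0363 over probes) and the third Pfkp probe 0.81 (adjusted p = 0.0023), the opposite sign to the other 2 Pfkp probes.

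The Egln3 value lay near the threshold and missed it when any 1 of 8 arrays was left out (limma adjusted p = 0.0526 to 0.062): control replicate 2, PH replicate 2, PEE replicates 1 and 3, TA replicate 2, PEE-TA replicate 2, PEE-PH replicate 2 and PEE-PH-TA replicate 1. Without PEE-PH-TA replicate 3 the values for Pdk1 (-0.43, adjusted p = 0.032) and Hk2 (-0.33, adjusted p = 0.0492) passed as well. Pdk1 probe 4 had the opposite sign with all arrays, at 0.65 (limma adjusted p = 0.0412 over probes). With the array signal as a covariate the 3 values were -0.95, -0.81 and -0.41 (adjusted p = 0.0657, 0.0811 and 0.114). For PEE with PH and for PEE with TA limma called 0 of 10 and 0 of all genes (0%), and the 10 values lay between -0.04 and 0.22.

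The 10 genes moved together from array to array within a group. After the group mean was taken from each array, all 45 pairs of the genes correlated at r = 0.60 to 0.97 over the 24 arrays, with a median of 0.85. The highest was between Pgk1 and Bnip3 and the lowest between Pfkp and Adm. By comparison, the other 22051 genes with values on all arrays had a median r between -0.03 and 0.04 with each of the 10, and 2.02% to 3.91% of them reached 0.6. These correlations are a description, and the genes share the same arrays and scaling.

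Single arrays were extreme within their group for the whole set. Because the 10 genes moved together, the counts that follow are not 10 separate observations. The share of all genes highest or lowest on each array was not counted. PH-TA replicate 2 was the lowest of its group for 10 of 10 genes, with a median deviation of -0.30, and PEE-PH-TA replicate 3 was the highest of its group for 10 of 10, at 0.33. PEE replicate 2 was highest for all 10 (0.19) and PH replicate 3 lowest for all 10 (-0.23). A set of 34 other HIF targets deviated the same way on these 4 arrays, with medians of -0.24, 0.25, 0.18 and -0.23, and 26 other glycolytic genes by -0.16, 0.10, 0.12 and -0.21. The 26 genes of pyruvate dehydrogenase and the citric acid cycle deviated by 0.03, 0.01, 0.02 and 0.00.

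Markers of cell layers deviated on those arrays too, in part with the sign of the 10 genes and in part against it. Inner root sheath markers deviated by -0.10, 0.02, 0.05 and 0.22 on PH-TA replicate 2, PEE-PH-TA replicate 3, PEE replicate 2 and PH replicate 3, and skeletal muscle markers by 0.09, -0.19, 0.46 and -0.97. The inner root sheath sign was that of the 10 genes on all but PH replicate 3. The muscle sign was that of the 10 genes on PEE replicate 2 and PH replicate 3 only. The raw signal of PH-TA replicate 2 was 229, within the 203 to 248 of its group, and that of PEE-PH-TA replicate 3 was 187, the highest of its group. That of PEE replicate 2 was 142, at the low end of the 142 to 147 of its group, and that of PH replicate 3 was 192, the highest of its group. What set these arrays apart was not tested. In 7 of the 8 groups, all but PEE-PH, at least 1 array was highest or lowest for 8 or more of the 10 genes. PH-TA (replicates 2 and 3) and PEE-PH-TA (replicates 1 and 3) each had 2 such arrays. In the other groups it was replicate 3 for control, PH and TA and replicate 2 for PEE and PEE-TA.

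**Figure D5:**
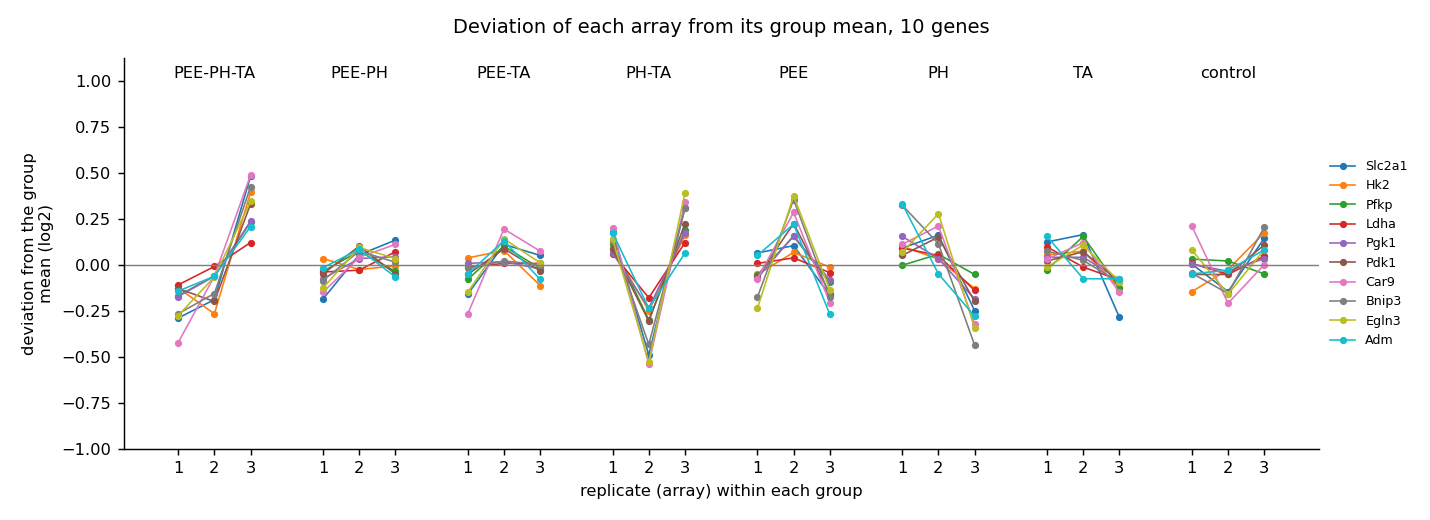
Deviation of each array from the mean of its group (log2) for the 10 genes, one line per gene, with groups from left to right and the 3 replicates of each group in order of their number. Lines run together within a group, down at PH-TA replicate 2 and up at PEE-PH-TA replicate 3, and lie close to 0 in PEE-PH.

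For each of the 10, the 2 other named genes with the most similar profile over the 24 arrays were listed, from 15534 named genes. Car9 was nearest to Espn (r = 0.95) and Nfil3 (0.94), and Egln3 to Ndrg1 and Ndufa4l2 (0.94 each). Pfkp was nearest to Mtss1 (0.94) and Ero1a (0.93), Slc2a1 to Kdm3a (0.94) and Mgarp (0.89), and Hk2 to Ak4 (0.89) and Usp53 (0.86). Pgk1 and Ldha shared Higd1a as nearest gene (0.93 and 0.81), followed by Rab33a (0.91) and Prdx5 (0.77). Pdk1 was nearest to Prelid2 (0.94) and Ak4 (0.90), Bnip3 to Fam162a (0.95) and Tmem74b (0.89), and Adm to Plekha2 (0.81) and Il13ra1 (0.78). Of these, Espn rose by 1.43 ± 0.28 under PEE-PH (limma adjusted p = 0.000854) and Nfil3 by 0.50 ± 0.11 (adjusted p = 0.00213).

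Other genes of sugar breakdown went both ways. Of 26 other glycolytic enzymes and transporters, 10 rose and 3 fell under PEE-PH, 10 rose and 2 fell under PEE-TA, 4 rose and 3 fell under PH-TA and 3 rose and 1 fell under PEE-PH-TA. Of all genes 35.9%, 25.5%, 29.5% and 16.5% were called in these 4 comparisons, and under PH-TA and PEE-PH-TA the list lay close to that share. Aldoc, an aldolase of glycolysis, rose by 1.15 under PEE-PH and by 1.07 under PEE-PH-TA (limma adjusted p = 4.29e-05 and 0.000232), and Slc16a7, a monocarboxylate transporter, by 0.81 and 0.76 (adjusted p = 0.000265 and 0.00106). Bpgm, the bisphosphoglycerate mutase of red cells, fell by 0.70 under PEE-PH (adjusted p = 0.000152), and Pfkfb1, an enzyme that regulates phosphofructokinase, by 0.48 (adjusted p = 0.00141). The list median was 0.29 under PEE-PH and 0.16 under PEE-PH-TA, where that of all genes was -0.06 and 0.00. PEE gave 1 up and 2 down, PH 2 up and TA 1 up, near the 10.9%, 5.25% and 1.81% of all genes called.

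Among 34 of 35 other known HIF targets that were tested, 12 rose and 3 fell under PEE-PH, 7 rose and 3 fell under PEE-TA, 5 rose and 3 fell under PH-TA and 1 rose and 4 fell under PEE-PH-TA. The share of all genes called in the same comparisons was 35.9%, 25.5%, 29.5% and 16.5%. Plod1, a collagen lysyl hydroxylase, rose by 1.01 under PEE-PH (limma adjusted p = 0.000134), and Ddit4, an inhibitor of mTORC1 signalling, by 1.15 (adjusted p = 0.00659). Edn1, the precursor of endothelin, fell by 0.67 under PEE-PH and by 0.43 under PEE-PH-TA (adjusted p = 2.45e-05 and 0.00285). The list medians were 0.36 and 0.17. With the single compounds no listed target rose, 4 fell under PEE, 1 under PH and 0 under TA. These counts lay near the share of all genes called, 10.9%, 5.25% and 1.81%.

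Of 18 components of the HIF pathway itself, 7 rose under PEE-PH, 4 under PEE-TA, 4 under PH-TA and 4 under PEE-PH-TA, and 1 fell, under PH-TA. These counts too lay near the share of all genes called (35.9%, 25.5%, 29.5% and 16.5%). Epas1, which encodes HIF-2 alpha, rose by 0.63 under PEE-PH (limma adjusted p = 0.000173) and Cited4, which binds the coactivators of HIF, by 0.66 (adjusted p = 0.00494). Of 26 genes of pyruvate dehydrogenase and the citric acid cycle, 2 rose and 6 fell under PEE-PH (35.9% of all genes called), 2 rose and 2 fell under PEE-TA (25.5%), 4 rose and 2 fell under PH-TA (29.5%) and 0 passed under PEE-PH-TA (16.5%). Pdk4 and Pdk2, relatives of Pdk1 that also shut off pyruvate dehydrogenase, rose by 0.84 and 0.55 under PEE-PH (adjusted p = 0.000184 and 0.00377), and Mpc1, a subunit of the mitochondrial pyruvate carrier, fell by 0.39 (adjusted p = 0.00164). Among 10 other carbonic anhydrases tested, 2 rose and 2 fell under PEE-PH, near the 35.9% of all genes, 2 rose under PEE-TA, 2 rose and 2 fell under PH-TA and 1 rose under PEE-PH-TA. Under PEE-PH, Car15 was up by 0.49 (adjusted p = 0.000995) and Car7 down by 0.55 (adjusted p = 0.0194).

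Markers of other cell types moved in the same comparisons. With PEE-PH, 7 of 8 inner root sheath markers rose, and their summed level, as a multiple of the 75th percentile, was 907 to 954, against 500 to 672 in control. It was 921 to 987 under PEE-TA, 880 to 995 under PH-TA, 846 to 885 under PEE-PH-TA, 709 to 964 under PH, 735 to 973 under TA and 444 to 612 under PEE, so that PEE and control were lowest for this sum as they were for Car9. Of 17 skeletal muscle markers 8 rose under PEE-PH, with a sum of 132 to 174, against 75.8 to 89.9 in control, and 7 of 8 cell cycle genes fell, with a sum of 32.1 to 34.4, against 57.6 to 63.1 in control. Endothelial markers rose for 5 of 7, with a sum of 18.3 to 22.7, against 12 to 13.4 in control. Of all genes 35.9% were called under PEE-PH, and the muscle count lay nearest to that share. Other sums were lower under PEE-PH. That of outer root sheath markers was 1410 to 1490, against 1810 to 1930 in control, and that of erythroid markers 786 to 940, against 1060 to 1140. The part of these shifts in the values of the 10 genes and the lists was not tested.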

How the data were processed

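Values came from the scanner files deposited for the 24 arrays, which hold 1 colour each, with the authors' deposited value table as an alternative. Per the file headers, Agilent Feature Extraction 12.0.3.1 turned the images into signal intensity, and probe positions are on mouse build mm9. The values in the authors' deposited table are log2, with array medians of 3.73 to 3.78; its background and centring steps are not given in the sources used here. The labels name biotin as label, while the scans hold a green channel.

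The processed signal was taken as log2 minus the 75th percentile of each array. Spots marked as outliers were set to missing, no spot was saturated, and a probe was kept if some group had it well above background on all 3 of its arrays (33365 probes of 56605, 22079 genes or transcripts), with the probe of the highest mean for each gene. A limma model with 1 mean per group (16 residual degrees of freedom) gave 22 comparisons. Its p-values received the Benjamini-Hochberg adjustment in each comparison separately and were called under 0.05. Each p-value measures the spread between these samples. The fit was tested on simulated data.

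Replicate numbers match the 3 slides, each with 1 array of every group. They were not taken to pair the samples. The 10 genes and all lists were chosen with earlier results of these data known. All 10 genes could be named in any comparison. Of each list up to 3 risers and 3 fallers with the smallest adjusted p are named, and marker lists are given as summaries.

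The alternatives tried were normexp background correction (offset 50), quantile normalization, the authors' table, no filter, the mean of probes, the slide as a replicate block, a trended robust prior, only the arrays compared, array signal as a covariate, and leaving out each array or slide. Promoter windows come from RefSeq (GRCm38.p6). Tools were R 4.3.3, limma 3.58.1, the data.table package at 1.17.8, Python 3.11.15 and matplotlib 3.10.9.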

Additional observations from a re-analysis of the deposited data

Results flagged for a closer look

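The effect of PH differed with and without TA for 3 of the 10 genes, by the test of that difference itself in limma, against 13.7% of all genes. The value was -0.91 for Car9, -0.72 for Egln3 and -0.45 for Pfkp on the log2 scale (adjusted p = 0.0139, 0.0301 and 0.0159), with the same sign on 3 of 3 slides for each gene. None of the 3 passed without slide 2 (adjusted p = 0.261, 0.265 and 0.229), without slide 1 (0.0825, 0.194 and 0.129) or with array signal as a covariate (0.0657, 0.0811 and 0.114), in limma for Car9, Egln3 and Pfkp. All 3 had the same probes, arrays and scaling as the comparisons above, so these are not separate evidence of them. The third Pfkp probe gave 0.81, the opposite sign (limma adjusted p = 0.0023 over probes). The mean of the tested Pfkp probes gave -0.03 (limma adjusted p = 0.892). Without the filter on dim probes the Egln3 value narrowly missed the threshold (limma adjusted p = 0.0507). Groups of 3 arrays were not tested for an outlying array.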

How the results depend on the processing

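The call of Car9 with PEE-PH held in 18 of 18 alternatives (log2 difference 1.10 to 1.40), and its average PH effect in 34 of 35. No called value of Car9, Pfkp or Egln3 changed sign. The called Ldha value under PH-TA did, at 0.05 and 0.06 with quantile normalization and the authors' deposited table. For PH added to PEE, Ldha was not called (-0.04 ± 0.08, limma adjusted p = 0.717). With the same alternatives it was 0.22 and 0.23 and passed as higher. The cause was not tested. Of 9 calls against control, the count was 4 with the mean of all tested probes and 3 with array signal as a covariate, under which none of the 2 calls for average effects, 6 for additions and 3 for non-additivity passed (0 each). With the mean of probes 1 call was made with each of PEE-PH, PEE-TA and PH-TA, 0 with PH, and 1 for the average PH effect, 1 of the average effects in all. With the covariate the counts were 1 with PEE-PH and PEE-TA, 0 with PH and PH-TA, 0 for the average PH effect, PH or TA added to PEE and PH with TA. Normexp background gave 6 calls for average effects (4 for PH, 2 for TA) and 12 for additions (7 for PH and 5 for TA added to PEE). PH added to PEE had 5 calls with quantile normalization and with the authors' deposited table, Pgk1 and Ldha among them. Without the filter the counts were 0 with PH, 1 with PEE-TA and 1 for the average TA effect, which was also 1 with the trended prior. With only the arrays compared they were 0 with PH, PH-TA and PEE-PH-TA. With the replicate block the count with PH was 0, and no other count of calls moved by over 1.5 times. Deviations of the 84 same-numbered pairs of samples correlated at -0.19 to 0.35 (median 0.10), against a median of -0.05 for differently numbered samples. Of 24 samples 19 correlated best with their own number, so same-numbered samples tended to deviate together, which the main fit did not model.

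Over all 22 comparisons 66277 calls were made among all genes, against 120324 with normexp, 113210 without the filter and 21593 with the covariate, and 346 in the pathway lists, against 551 with normexp and 101 with the covariate. Leaving out arrays or slides gave 3 to 9 calls against control, 1 to 6 for average effects, 4 to 8 for additions, 0 to 5 for non-additivity, 22853 to 68712 over all genes and 109 to 365 in the lists. By comparison it gave 0 to 1 with PH and with PEE-PH-TA, 1 to 2 with PEE-PH, 0 to 2 with PEE-TA, 0 to 3 with PH-TA, 1 to 4 for the average PH effect, 0 to 2 for that of TA, 2 to 4 for PH and 2 to 3 for TA added to PEE, and 0 to 5 for PH with TA. The median over all genes was -0.12 with PH-TA and -0.13 for PH added to PEE under normexp, and without the filter it ran from -0.26 to 0.14.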
